A study of Mus musculus with 12 samples.

Results

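8 genes of the calcineurin-NFAT pathway were followed through the activation of mouse natural killer (NK) cells, which are lymphocytes that kill target cells and secrete cytokines. They were the transcription factor genes Nfatc1, Nfatc2 and Nfatc3, the genes of the 3 calcineurin catalytic subunits Ppp3ca, Ppp3cb and Ppp3cc, the regulatory subunit gene Ppp3r1 and the inhibitor gene Rcan1. They were chosen by symbol and are 8 of the 55487 features in the deposited table. All 8 were among the 12364 genes that passed a filter on low values, a log2 CPM (read counts scaled to a fixed library total) above 0 in at least 4 samples. The 12 samples fall into 3 groups of 4, each with the replicate labels f2, m2, m3 and m4. The unstimulated group holds NK cells described as given HD IL-15 and as unstimulated. No time is given for this group, so time in culture and the antibody cannot be told apart in comparisons with it. The other groups hold NK cells, also given HD IL-15, that were treated with anti-NK1.1, an antibody against an activating receptor, for 6 hours and were either negative (YFP-) or positive (YFP+) for a yellow fluorescent reporter. Every sample came from strain B6.129S4-Ifngtm3.1Lky/J with the genotype mut/mut, so that the controls carry the altered interferon gamma allele too and no wild-type sample was compared. The labels give no ages, and they do not say whether samples that share a replicate label came from 1 mouse or whether animals were pooled. The p-values therefore measure the spread between these samples.

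Calcineurin is a phosphatase made of a catalytic and a regulatory subunit, and calcium-bound calmodulin switches it on. It removes phosphates from NFAT proteins, which then enter the nucleus and drive cytokine genes, and protein kinases return them to the cytoplasm. In NK cells, receptors that carry activating signals release calcium from internal stores and open calcium channels in the plasma membrane, and ciclosporin and tacrolimus block the pathway at calcineurin. Only RNA levels were measured, so neither the phosphorylation nor the location of NFAT proteins is known for these samples.

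Rcan1 has an inner start site inside the gene that is a textbook target of NFAT. The 250 bases before this start and before an outer start of Rcan1 are shown because Rcan1 was the only one of the 8 genes that rose, and the same window of Nfatc2, which fell, is shown for comparison. The sequences are from RefSeq on GRCm38.p6 and run 5′ to 3′ on the minus strand, from chr16:92400079-92400328, chr16:92466170-92466419 and chr2:168601658-168601907. Capitals mark GGAAA, the core that NFAT proteins bind, read on either strand (TTTCC on the other), and TGANTCA, an AP-1 motif that reads the same on both strands.
Rcan1 inner start: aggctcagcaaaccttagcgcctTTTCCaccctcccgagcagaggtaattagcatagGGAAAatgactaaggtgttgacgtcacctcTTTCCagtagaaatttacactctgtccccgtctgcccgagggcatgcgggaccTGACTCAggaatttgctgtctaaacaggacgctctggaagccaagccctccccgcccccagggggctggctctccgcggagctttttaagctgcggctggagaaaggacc
Rcan1 outer start: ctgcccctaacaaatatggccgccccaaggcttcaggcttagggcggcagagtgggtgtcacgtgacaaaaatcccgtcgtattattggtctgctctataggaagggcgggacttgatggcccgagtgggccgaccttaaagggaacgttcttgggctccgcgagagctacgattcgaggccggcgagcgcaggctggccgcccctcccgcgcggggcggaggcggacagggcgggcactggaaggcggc
Nfatc2 first start: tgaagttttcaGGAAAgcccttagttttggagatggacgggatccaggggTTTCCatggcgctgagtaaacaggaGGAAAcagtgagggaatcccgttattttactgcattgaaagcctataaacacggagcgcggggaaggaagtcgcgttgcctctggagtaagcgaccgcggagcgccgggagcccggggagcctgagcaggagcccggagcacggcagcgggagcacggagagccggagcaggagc
The inner window of Rcan1 held 3 matches to GGAAA and 1 to TGANTCA, none overlapping another, and the outer window held 0 and 0. The Nfatc2 window also held 3 matches to GGAAA. A second Nfatc2 window, at chr2:168590366-168590615 and not shown, held 1. The Ppp3cb window held 3, the Nfatc3 windows 1 and 0, and the Ppp3r1 window 0. Of 32817 windows of the same length in the table, 55.6% held at least 1 GGAAA match, 6.38% at least 3, and 6.75% a TGANTCA match. Promoter entries were matched for 5 of the 8 genes. A match describes these letters only, and no value here tells which start gave the Rcan1 reads, since the deposited values sum all transcripts of a gene.

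The libraries held 32.1 to 54.2 M reads each (M, mega), and 3 reads corresponded to 0.0553 to 0.0933 CPM, a floor that covers counting error only. Features of ribosomal RNA type took 5.13 to 17.8% of reads. With 3 further abundant features (Lars2, Mir6236 and Gm23935) the share ranged over 27.4 to 35.3% (unstimulated), 15.9 to 30.3% (YFP-) and 13.7 to 29.8% (YFP+). In YFP+ samples the log2 CPM of tested genes had a mean median of 3.41, against 3.67 in YFP- and 3.53 in unstimulated samples. All 10 NK cell markers reached 1 CPM in every group, and their summed level spanned 13761 to 16449 CPM without stimulation, 9658 to 12193 CPM in YFP- and 10192 to 14113 CPM in YFP+ libraries. Gzma, Prf1 and Nkg7 made up most of that sum. One by one, 7 of the 10 were called lower and 1 higher in each stimulated group against unstimulated samples, and 5 lower and 1 higher in YFP+ than in YFP- samples. Of all tested genes, 20.9% were called lower and 30.2% higher in YFP- against unstimulated samples. The shares were 33.3% lower and 27.5% higher in YFP+ against unstimulated samples, and 18.5% lower and 3.28% higher in YFP+ than in YFP- samples. Klrb1c, which encodes NK1.1, the receptor the antibody binds, went from 308 ± 16.4 to 75.3 ± 12.5 and 6.50 ± 2.29 CPM in unstimulated, YFP- and YFP+ samples. In the same order the receptor gene Ncr1 went through 247, 222 and 123 CPM, Klrd1 through 385, 270 and 165 CPM, and the transcription factor gene Eomes through 108, 70.5 and 40.7 CPM. Of 9 T cell markers, 4 reached 1 CPM in unstimulated and 5 in each stimulated group. The T cell list summed to 125 to 174, 169 to 268 and 235 to 349 CPM in unstimulated, YFP- and YFP+ samples, and Cd4, Cd8a and Cd8b1 stayed at or below 0.193 CPM in every library. The 4 T cell markers that were tested went in both directions: Trac (7.43, 34.3 and 48.4 CPM) and Cd28 (72.6, 124 and 199 CPM) were called higher in both stimulated groups, and Cd3g (47.9, 32.5 and 20.6 CPM) and Cd3d (17.8, 15.7 and 10.4 CPM) were called lower in YFP+ than in unstimulated samples. The summed B cell markers did not exceed 4.19 CPM, the myeloid markers 10.2 CPM and the red cell markers 0.326 CPM. The part of the NK and T cell markers, or of the ribosomal share, in the differences below was not tested. In bulk RNA, fewer cells of a type and less RNA per cell cannot be told apart.

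After 6 hours of anti-NK1.1, RNA of 5 of the 8 genes was lower than in unstimulated samples in both reporter groups: Nfatc2, Nfatc3, Ppp3ca, Ppp3cb and Ppp3cc. Rcan1 was higher in both, and Nfatc1 and Ppp3r1 passed the test in no comparison. Nfatc2, Nfatc3 and Ppp3ca were lower again in YFP+ than in YFP- samples. The test was limma on the deposited log2 CPM of all 12364 genes, with p-values adjusted over all of them by Benjamini-Hochberg and called under 0.05. In YFP- against unstimulated samples 6 of the 8 genes were called, 5 of them lower, where 51.1% of all tested genes were called, 20.9% lower and 30.2% higher. In YFP+ against unstimulated samples 6 were called, again 5 lower, where 60.8% of all genes were called, 33.3% lower and 27.5% higher. In YFP+ against YFP- samples 3 were called, all lower, where 21.8% of all genes were called, 18.5% lower and 3.28% higher. The median log2 difference of the 8 genes was -0.65 in YFP- and -1.15 in YFP+ against unstimulated samples, beside 0.14 and -0.03 over all tested genes. Over the 10 NK cell markers it was -0.51 and -1.04. For YFP+ against YFP- samples the median of the 8 genes was -0.19, and the median of all tested genes was -0.19 too. That of the NK cell markers was -0.46 there. The values of the 4 and 4 samples did not overlap for the same genes: 3 lower in YFP+ than in YFP- samples, and 5 lower and 1 higher in each stimulated group against unstimulated samples. Over all tested genes 22.1% did not overlap between YFP+ and YFP- samples (17.8% lower, 4.31% higher), 52.7% between YFP- and unstimulated (21.7% lower, 30.9% higher) and 54.7% between YFP+ and unstimulated (30.8% lower, 24% higher). The comparisons share samples and are therefore not independent of each other.

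**Figure D1:**
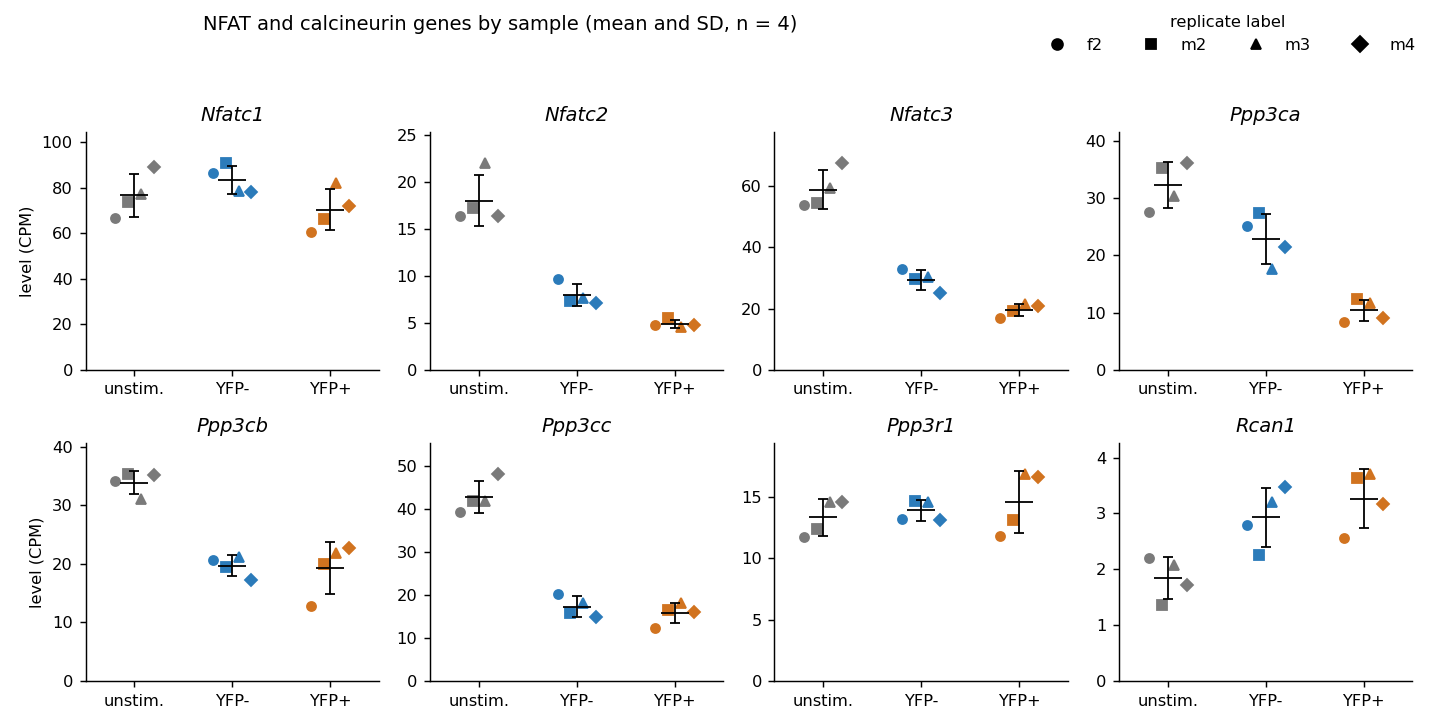
Level in CPM (vertical axis, linear, from 0) of each of the 8 genes in the 12 samples, by group; marker shapes are the replicate labels, and black bars give the mean and SD of 4 samples. Nfatc2, Nfatc3 and Ppp3ca step down over the 3 groups without overlap, Ppp3cb and Ppp3cc are lower in both stimulated groups, and Rcan1 is higher in both.

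The NFAT genes did not move together. Nfatc1 encodes NFAT2, which in lymphocytes has a short form that activation induces. The gene lies on chromosome 18 (GRCm38, 80606205 to 80713071, minus strand). In unstimulated samples f2, m2, m3 and m4 its level was 66.8, 73.8, 77.1 and 89.4 CPM. The YFP- samples gave 86.6, 91.0, 78.6 and 78.3 CPM and the YFP+ samples 60.8, 66.4, 82.1 and 72.2 CPM. All 3 groups overlap. The log2 difference of Nfatc1 was 0.13 in YFP- against unstimulated samples (95% interval -0.15 to 0.40, adjusted p = 0.420) and -0.13 in YFP+ (interval -0.40 to 0.15, adjusted p = 0.413). From YFP- to YFP+ samples it was -0.25, with an interval from -0.53 to 0.02 (adjusted p = 0.176). A shift between its transcript forms would not show in values summed per gene.

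Nfatc2 encodes NFAT1, a form present in resting lymphocytes. The gene lies on chromosome 2 (168476410 to 168601657, minus strand). Its level in unstimulated samples was 16.4, 17.3, 22.0 and 16.4 CPM. In YFP- samples it was 9.64, 7.30, 7.67 and 7.12 CPM, and in YFP+ samples 4.76, 5.48, 4.50 and 4.76 CPM. The 3 groups did not overlap, and every YFP- sample lay between the others. Even the lowest library held 153 Nfatc2 reads. Nfatc2 fell by 1.18 on the log2 scale in YFP- samples (SE 0.15, adjusted p = 2.97e-05) and by 1.88 in YFP+ samples (SE 0.15, adjusted p = 1.96e-07), which is 0.272 times the unstimulated level. From YFP- to YFP+ it dropped by 0.69 (SE 0.15, adjusted p = 0.00521). Under quantile normalization this last difference was -0.36 and no longer passed (adjusted p = 0.0886, the highest of all settings tried).

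Nfatc3, which encodes NFAT4, showed the same order of groups. The gene lies on chromosome 8 (106058840 to 106130537, plus strand). Its level was 53.9, 54.5, 59.3 and 67.6 CPM in unstimulated samples, 33.0, 29.5, 30.2 and 25.0 CPM in YFP- samples, and 16.9, 19.0, 21.4 and 20.8 CPM in YFP+ samples, with no overlap between any groups. Nfatc3 fell from a mean log2 CPM of 5.87 in unstimulated to 4.87 in YFP- samples (interval of the difference -1.28 to -0.71, adjusted p = 3.90e-05), and by 1.59 in YFP+ samples (SE 0.13, adjusted p = 2.61e-07). From YFP- to YFP+ samples the log2 difference was -0.59 (SE 0.13, adjusted p = 0.00613). This last call did not hold under quantile normalization (adjusted p = 0.142), median centring (-0.33, adjusted p = 0.153), or without the samples labelled f2 (-0.46, adjusted p = 0.0595) or m2 (-0.58, adjusted p = 0.0575). Nfatc3 shares 219 exon bases with Esrp2 on the opposite strand, which reached 15.7 CPM and was higher by 4.40 and 5.50 on the log2 scale in YFP- and YFP+ against unstimulated samples. The sources used here do not state whether counting used strand, so reads in those bases cannot be assigned to either gene.

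The catalytic subunit genes were lower in stimulated samples, with different steps. Ppp3ca encodes calcineurin A alpha and lies on chromosome 3 (136670124 to 136937727, plus strand). Its level was 27.6, 35.3, 30.4 and 36.2 CPM in unstimulated samples. The YFP- samples had 25.2, 27.5, 17.6 and 21.4 CPM, and the YFP+ samples 8.40, 12.4, 11.6 and 9.12 CPM. The YFP+ samples stood well below both other groups, while the highest YFP- sample nearly met the lowest unstimulated one. Ppp3ca dropped by 1.14 from YFP- to YFP+ samples (SE 0.18, adjusted p = 0.000506), which is 0.453 times the YFP- level, and this held in all 18 alternative settings, with a highest adjusted p of 0.00931. Against unstimulated samples it fell by 1.65 in YFP+ (SE 0.18, adjusted p = 2.58e-06) and by 0.51 in YFP- samples (SE 0.18, adjusted p = 0.0266). The latter call was lost without a filter on low values (adjusted p = 0.116) and without the samples labelled m3 (adjusted p = 0.0909) or m4 (adjusted p = 0.155).

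Ppp3cb, which encodes calcineurin A beta, lies on chromosome 14 (20499364 to 20546573, minus strand). The unstimulated samples had 34.1, 35.3, 31.0 and 35.1 CPM, the YFP- samples 20.7, 19.5, 21.2 and 17.2 CPM, and the YFP+ samples 12.9, 19.9, 21.9 and 22.6 CPM. Both stimulated groups lay below all unstimulated samples and overlapped each other. Ppp3cb fell by 0.79 in YFP- (SE 0.17, adjusted p = 0.00163) and by 0.84 in YFP+ samples (SE 0.17, adjusted p = 0.000671). Between the reporter groups the log2 difference was -0.05, with an interval from -0.42 to 0.31 (adjusted p = 0.849). The lowest YFP+ value is that of library f2, which was the lowest YFP+ library for 7 of the 8 genes, all but Nfatc2. Without it the Ppp3cb difference between reporter groups was 0.13, and the numbers of the 8 genes called stayed at 3, 6 and 6 in the 3 comparisons.

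Ppp3cc, the gene of calcineurin A gamma, also lies on chromosome 14 (70217865 to 70289471, minus strand). Its level was 39.3, 41.9, 41.9 and 48.1 CPM in unstimulated samples, 20.2, 15.7, 18.1 and 15.0 CPM in YFP- samples and 12.4, 16.6, 18.0 and 16.1 CPM in YFP+ samples. The stimulated groups overlapped each other and lay below every unstimulated sample. Ppp3cc fell by 1.32 in YFP- (SE 0.15, adjusted p = 1.02e-05) and by 1.45 in YFP+ samples (SE 0.15, adjusted p = 1.76e-06). The log2 difference of Ppp3cc between the reporter groups was -0.13, with an interval from -0.45 to 0.19 (adjusted p = 0.560). An antisense gene that shares 91 exon bases with Ppp3cc, Gm49417, did not exceed 0.628 CPM.

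Ppp3r1 encodes calcineurin B, the regulatory subunit that binds calcium and pairs with each catalytic subunit. The gene lies on chromosome 11 (17159263 to 17200375, plus strand). Its level was 11.8, 12.4, 14.6 and 14.6 CPM in unstimulated, 13.2, 14.7, 14.6 and 13.1 CPM in YFP- and 11.8, 13.1, 16.9 and 16.6 CPM in YFP+ samples. The groups overlap throughout. The log2 difference of Ppp3r1 was 0.07 in YFP- (interval -0.25 to 0.38, adjusted p = 0.731) and 0.12 in YFP+ against unstimulated samples (interval -0.20 to 0.44, adjusted p = 0.501), and 0.05 between YFP+ and YFP- samples (interval -0.26 to 0.37, adjusted p = 0.820). Ppp3r1 shares 462 exon bases with Wdr92 on the same strand, which reached 26.1 CPM, so part of the reads of either may be uncertain.

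Rcan1 encodes an inhibitor that binds calcineurin, and it is itself induced through NFAT in many cell types. The gene lies on chromosome 16 (92391953 to 92470867, minus strand). It was the least read of the 8 genes, with 52 to 84 reads per unstimulated library. Its level was 2.20, 1.37, 2.08 and 1.73 CPM in unstimulated samples, 2.80, 2.25, 3.20 and 3.47 CPM in YFP- samples and 2.55, 3.63, 3.70 and 3.17 CPM in YFP+ samples. Every stimulated sample was above every unstimulated one, and the reporter groups overlap. Rcan1 rose by 0.83 on the log2 scale in YFP+ samples (SE 0.22, adjusted p = 0.00459), a 1.78-fold higher level. In YFP- samples it rose by 0.67 (SE 0.22, adjusted p = 0.0200). The YFP- call was lost without a filter (adjusted p = 0.0577), with median centring (0.0916), with the 3 abundant features also left out of the totals (0.116), and without the samples labelled m3 (0.0552) or m4 (0.131). Its difference between the reporter groups was 0.16, with an interval from -0.31 to 0.63 (adjusted p = 0.642).

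**Figure D2:**
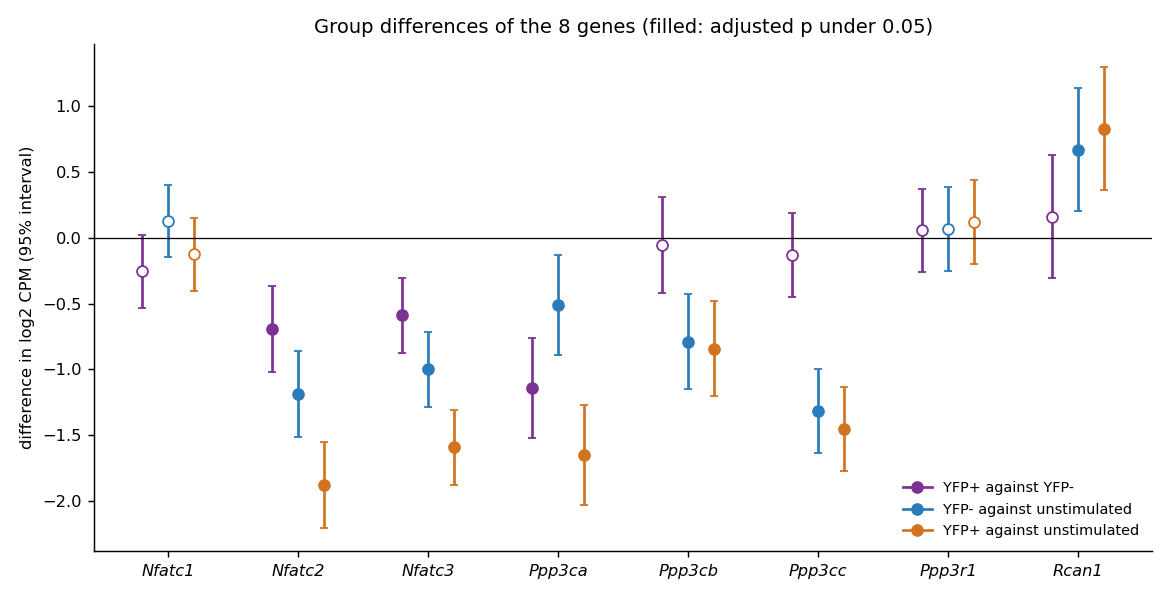
Difference in log2 CPM between groups (vertical axis) for the 8 genes, with 95% intervals from the fit to all tested genes; filled points have an adjusted p under 0.05. The 5 falling genes lie between -0.51 and -1.88 against unstimulated samples, Rcan1 lies above 0 there, and the intervals of Nfatc1 and Ppp3r1 include 0 in all 3 comparisons.

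Levels per kilobase (kb) of all annotated exon sequence allow the genes to be set against each other, with an order that depends in part on the length used. In unstimulated samples Ppp3cc was highest at 14.3 ± 1.25 CPM per kb (SD, n = 4), followed by Nfatc1 at 10.3 ± 1.27 and Nfatc3 at 5.02 ± 0.538, each separate from the next. Ppp3r1 (4.13), Ppp3cb (3.85) and Ppp3ca (3.24 CPM per kb) followed with neighbours whose ranges overlapped, then Nfatc2 at 1.70 and Rcan1 at 0.598 CPM per kb, both separate. In YFP- samples Nfatc1 came first at 11.2 ± 0.835 CPM per kb, ahead of Ppp3cc at 5.78 ± 0.806 and Ppp3r1 at 4.31 ± 0.264, each separate from the next. Nfatc3 (2.51), Ppp3ca (2.30) and Ppp3cb (2.23 CPM per kb) overlapped with their neighbours in this order. Rcan1 (0.950) and Nfatc2 (0.750 CPM per kb) came last, with overlapping ranges. In YFP+ samples Nfatc1 led at 9.42 ± 1.22 CPM per kb, and Ppp3cc (5.28) and Ppp3r1 (4.52) followed with overlapping ranges. Below them Ppp3cb (2.19) overlapped Nfatc3 (1.67), Rcan1 (1.06) overlapped Ppp3ca (1.04), and Nfatc2 was lowest at 0.461 CPM per kb. With the length of the longest transcript instead, a choice made after seeing the data, Nfatc1 still led both stimulated groups, separate from Ppp3cc, and Rcan1 was still lowest in unstimulated samples. Other places changed. Ppp3cc (17.2) and Nfatc1 (16.0 CPM per kb) then overlapped in unstimulated samples, and Ppp3r1 (4.66) lay below Ppp3cb (8.85) and Ppp3ca (6.80 CPM per kb) there. In YFP- samples Ppp3r1 was no longer separate from Nfatc3, and in YFP+ samples Rcan1 (1.41) lay below Ppp3ca (2.18 CPM per kb) without overlap.

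Shares within a family do not depend on how a library is scaled. Among the 3 NFAT genes, the share of Nfatc1 per kb rose from 60.4 ± 1.45% without stimulation to 77.5 ± 1.82% (YFP-) and 81.5 ± 1.03% (YFP+; SD, n = 4). Nfatc3 made up 29.5 ± 0.808%, 17.4 ± 1.34% and 14.4 ± 0.495%, and Nfatc2 10.1 ± 1.59%, 5.18 ± 0.603% and 4.04 ± 0.677%. The family sum was 17.0 ± 1.81, 14.5 ± 1.06 and 11.6 ± 1.36 CPM per kb. Among the catalytic subunits, Ppp3cc held a share of 66.9 ± 1.44% without stimulation, against 56.0 ± 3.52% (YFP-) and 62.2 ± 1.56% (YFP+). Ppp3ca made up 15.1 ± 1.01%, 22.3 ± 4.07% and 12.3 ± 1.48%, so its share was highest in YFP- samples. Ppp3cb made up 18.0 ± 1.29%, 21.7 ± 1.39% and 25.6 ± 2.61%. The sum of the 3 catalytic genes went from 21.4 ± 1.69 to 10.3 ± 1.04 and 8.52 ± 1.42 CPM per kb. The level of Ppp3r1 over this sum rose from 0.193 ± 0.0183 without stimulation to 0.421 ± 0.0465 (YFP-) and 0.534 ± 0.0595 (YFP+).

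These shares and the ratio were chosen after the levels had been seen, and the shares of a family sum to a fixed total, so they are given as a description with no test. The values of the groups did not overlap, except for the shares of Nfatc2 and Ppp3cb between YFP+ and YFP- samples. For the Ppp3r1 ratio the highest YFP- value, 0.446 (m4), nearly met the lowest YFP+ value, 0.449 (m2). With longest-transcript lengths the Ppp3cb share also overlapped between YFP- and unstimulated samples. The levels moved with that length while the order of the groups stayed for these 3: the Nfatc1 share was 56.1, 74.2 and 78.6%, that of Ppp3ca 20.7, 28.6 and 16.2%, and the Ppp3r1 ratio 0.142, 0.290 and 0.379.

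**Figure D3:**
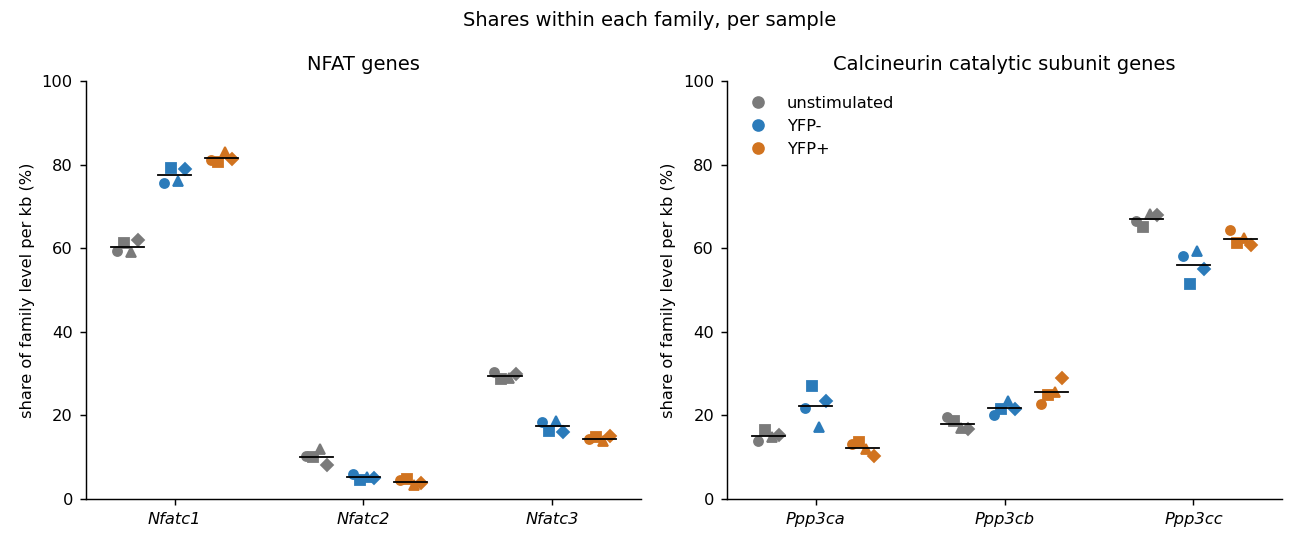
Share of each gene in the summed level per kb of its family (vertical axis, %), for the NFAT genes and the catalytic subunit genes; points are samples, colours are groups (unstimulated, YFP- and YFP+ from left to right), shapes are replicate labels (circle f2, square m2, triangle m3, diamond m4) and lines are means of 4 samples. Nfatc1 goes from 60.4% to 77.5% and 81.5%, and Ppp3ca peaks in YFP- samples at 22.3%.

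The scaling of the libraries bears on the smaller differences. Over all tested genes, 405 were called higher and 2286 lower in YFP+ than in YFP- samples, and with each library centred on its median the counts were 1505 and 1491. In YFP- against unstimulated samples 3735 were called higher and 2586 lower, against 3072 and 3444 with ribosomal RNA-like and the 3 abundant features left out of the totals. Median centring moved the median difference of all genes between YFP+ and YFP- samples from -0.19 to 0.07. All 6 calls for YFP+ against unstimulated samples held in every setting that tested the gene, with a highest adjusted p of 0.0423, for Rcan1; the filter at a log2 CPM above 2 removed Rcan1 itself. The signs of Nfatc1 and Ppp3r1 against unstimulated samples, and of Nfatc1, Ppp3cb and Ppp3cc between the reporter groups, changed with the scaling, and none of these differences was called.

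**Figure D4:**
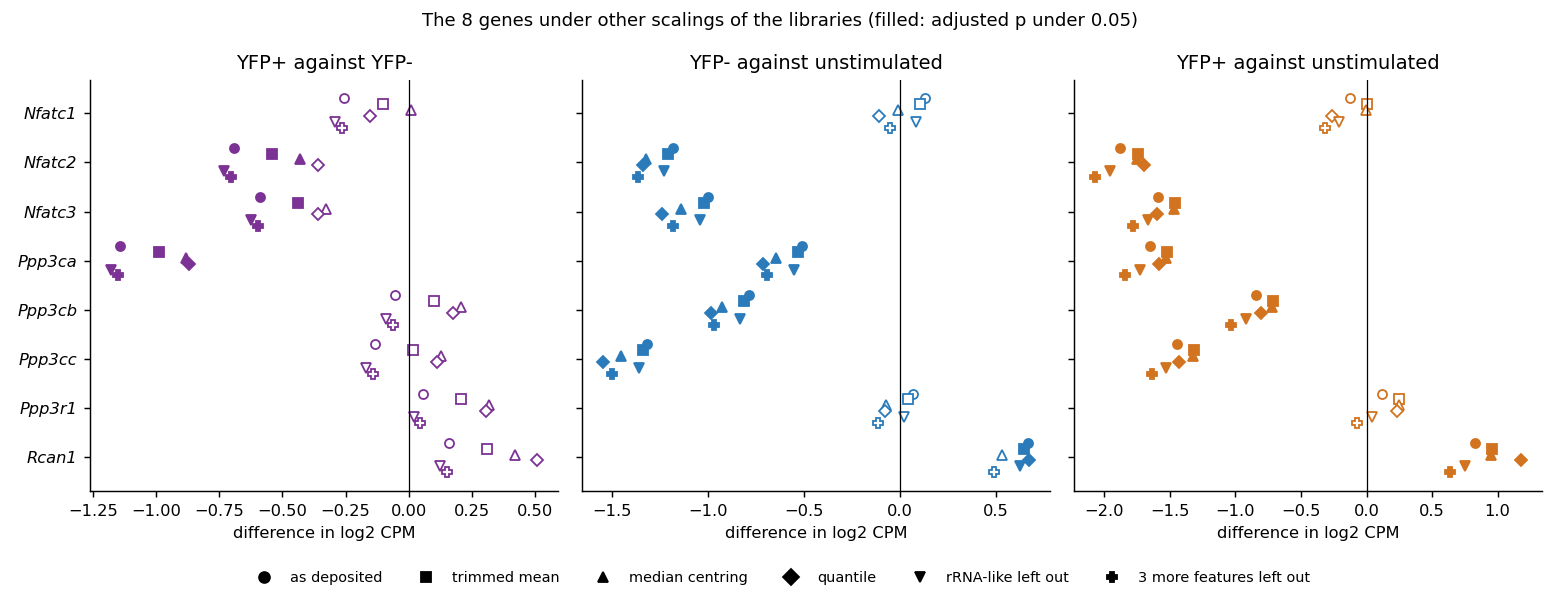
Difference in log2 CPM (horizontal axis) of the 8 genes in the 3 comparisons under 6 scalings of the libraries, shown by marker shape; filled markers have an adjusted p under 0.05. Against unstimulated samples the 5 falling genes stay left of 0 and filled under all 6, while between YFP+ and YFP- samples Nfatc2 and Nfatc3 move toward 0 and are unfilled under quantile normalization.

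Other genes of the pathway were counted in 6 lists, beside a median log2 difference over all tested genes of -0.19 (YFP+ against YFP-), 0.14 (YFP- against unstimulated) and -0.03 (YFP+ against unstimulated). Over all tested genes 21.8%, 51.1% and 60.8% were called in these comparisons, and the counts of each list stand beside those shares. Of the 5 other family genes, Nfatc4, Ppp3r2 and Rcan2 failed the filter, with at most 16, 2 and 2 reads in a library. Rcan3, a relative of Rcan1, was not called. Nfat5, a relative that lacks the calcineurin binding site, rose by 0.78 in YFP- samples (SE 0.24, adjusted p = 0.0134), from 8.50 ± 1.60 to 14.6 ± 2.44 CPM. It was 12.7 ± 3.89 CPM in YFP+ samples, a log2 difference of 0.54 from unstimulated samples (adjusted p = 0.0623). Without the YFP+ library f2 this was 0.77 (adjusted p = 0.00368), and quantile normalization, median centring and trimmed-mean scaling also called it (adjusted p of 0.0304, 0.0420 and 0.0179), as did leaving out the samples labelled f2 (adjusted p = 0.0156). The Nfat5 call in YFP- samples was lost without the samples labelled m4 (adjusted p = 0.0585), with median centring (0.0554), with the 3 abundant features also left out of the totals (0.0758) and without a filter (0.0926).

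Of 8 genes for calcineurin inhibitors, anchors and immunophilins, the proteins through which the drugs act, 6 were tested. In YFP- against unstimulated samples 2 rose and 2 fell, in YFP+ 1 rose and 2 fell, and 0 were called between the reporter groups by limma or by its voom weights, with 2 lower at an unadjusted p under 0.05. In the last comparison Fkbp8 had a log2 difference of -0.39 (adjusted p = 0.0677), which passed under quantile normalization (adjusted p = 0.0381), with totals without ribosomal RNA-like features (0.0173) or also without the 3 abundant features (0.0114), and without the YFP+ library f2 (0.0396). The list medians were 0.20 in YFP- and -0.41 in YFP+ against unstimulated samples and -0.32 between the reporter groups. Fkbp1a, which encodes the tacrolimus-binding protein FKBP12, rose by 0.63 in YFP+ samples (SE 0.17, adjusted p = 0.00465), from 308 ± 53.4 to 479 ± 96.4 CPM. Fkbp8, a membrane-bound relative, fell by 1.01 (SE 0.14, adjusted p = 3.30e-05), from 398 ± 29.4 to 200 ± 37.3 CPM. Ppia, which encodes the ciclosporin-binding cyclophilin A, fell by 0.29 in YFP+ samples (adjusted p = 0.0106), a call lost with trimmed-mean scaling (adjusted p = 0.132), median centring (0.237), no filter (0.125) and without the samples labelled m2 (0.0950). Cabin1, a calcineurin-binding inhibitor, rose by 0.40 in YFP- samples (adjusted p = 0.0317), a call lost without the samples labelled f2, m2 or m4 (adjusted p of 0.190, 0.210 and 0.116). The Cabin1 call was also lost under quantile normalization (adjusted p = 0.142), median centring (0.0882), totals also without the 3 abundant features (0.169) and no filter (0.0868).

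Of 9 genes for kinases that phosphorylate NFAT, 8 were tested. In YFP- against unstimulated samples 3 fell, in YFP+ 2 fell, between the reporter groups 1 fell, and 0 rose, also with voom weights and at an unadjusted p under 0.05. These 3, 2 and 1 of 8 genes stand beside 51.1%, 60.8% and 21.8% of all tested genes called. The list medians were -0.02, -0.22 and -0.22. Dyrk1b went from 8.11 ± 1.45 CPM in unstimulated to 3.14 ± 0.553 in YFP- and 0.913 ± 0.157 CPM in YFP+ samples. It dropped by 1.77 from YFP- to YFP+ samples (SE 0.20, adjusted p = 6.50e-05). Gsk3b fell by 0.80 in YFP+ samples (SE 0.14, adjusted p = 0.000182). Gsk3a fell by 0.40 in YFP- samples (adjusted p = 0.0408), a call lost without the samples labelled m2, m3 or m4 (adjusted p of 0.0986, 0.0958 and 0.232) or without a filter (0.125).

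Of 14 genes for calcium release, calcium entry and calmodulin, 13 were tested. Against unstimulated samples 3 rose and 6 fell in YFP-, and 2 rose and 7 fell in YFP+ samples. Between the reporter groups 3 fell. Thus 9, 9 and 3 of 13 genes were called, beside 51.1%, 60.8% and 21.8% of all tested genes, and the list medians were -0.15, -0.62 and -0.40 in these 3 comparisons. Itpr3, an inositol trisphosphate receptor that releases stored calcium, went from 31.7 ± 2.10 to 9.85 ± 1.67 and 5.25 ± 1.71 CPM in unstimulated, YFP- and YFP+ samples. It fell by 2.66 in YFP+ samples (SE 0.23, adjusted p = 3.82e-07). Itpr2, a second such receptor, fell by 1.96 (SE 0.24, adjusted p = 8.48e-06), and Plcg2, the phospholipase that makes the messenger, fell by 1.55 (SE 0.17, adjusted p = 3.12e-06). Stim1, a calcium sensor of the stores, fell by 1.26 in YFP+ samples (SE 0.14, adjusted p = 5.21e-06). Stim2, a second such sensor, was added after its values were seen. It rose by 0.61 in YFP- (SE 0.16, adjusted p = 0.00534) and by 0.66 in YFP+ samples (adjusted p = 0.00231). Orai1, the channel that Stim1 opens, is added here after its values were seen: it rose by 1.24 in YFP- (SE 0.18, adjusted p = 0.000104) and by 0.78 in YFP+ samples (adjusted p = 0.00229). The calls of Itpr2 and Stim1 between the reporter groups were lost without the samples of label f2, m2 or m4 (highest adjusted p of 0.141 and 0.0704). Quantile normalization gave -0.52 for Itpr2 and -0.35 for Stim1 (adjusted p of 0.103 and 0.0845), and median centring -0.60 and -0.34 (adjusted p of 0.0604 and 0.0730), so neither call held under these scalings. Without a filter Itpr2 and Itpr3 were not called between the reporter groups (adjusted p of 0.124 and 0.0772).

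The 6 genes counted for calcium pumps and mitochondrial uptake were all tested. Against unstimulated samples 3 rose and 2 fell in YFP-, and 2 rose and 2 fell in YFP+ samples; between the reporter groups 1 rose, Atp2a2, and 1 fell, Atp2b4. The list medians were 0.11, 0.06 and -0.11. The pumps of the endoplasmic reticulum moved in opposite directions. Atp2a3 went from 93.9 ± 9.39 to 21.1 ± 3.87 and 18.1 ± 3.62 CPM, and Atp2a2 from 37.0 ± 3.11 to 69.6 ± 5.47 and 113 ± 32.2 CPM in unstimulated, YFP- and YFP+ samples. Atp2a3 fell by 2.39 (SE 0.17, adjusted p = 6.95e-08) and Atp2a2 rose by 1.56 (SE 0.18, adjusted p = 5.14e-06) in YFP+ samples. Atp2b4, a plasma membrane pump, fell by 3.07 in YFP+ samples (SE 0.19, adjusted p = 2.14e-08), from 54.4 ± 5.19 to 6.54 ± 1.18 CPM. Atp2b1, a second plasma membrane pump, rose by 0.63 in YFP- samples (SE 0.18, adjusted p = 0.00913), from 54.5 ± 9.42 to 85.1 ± 20.0 CPM, a call lost without the samples labelled f2 or m4 (adjusted p of 0.0620 and 0.0640) or without a filter (0.0619). In YFP+ samples Atp2b1 was at 70.2 ± 8.33 CPM, a log2 difference of 0.38 from unstimulated samples (adjusted p = 0.0828), which was 0.52 without the samples labelled m3 (adjusted p = 0.0208) and passed with median centring (0.00430) and trimmed-mean scaling (0.0104). The call of Atp2a2 between the reporter groups was lost without label m2, m3 or m4 (highest adjusted p of 0.142), without a filter (0.119) and with only the 8 samples compared (0.0556).

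Of 10 lymphocyte genes known to be driven by NFAT, 8 were tested. Against unstimulated samples 7 rose in YFP-, and 6 rose and 1 fell in YFP+ samples. Between the reporter groups 3 rose, Ifng, Tnf and Il2, and 1 fell, Egr3. The list medians were 3.97, 4.74 and 0.24. Ifng marks the reporter by which the YFP+ and YFP- groups were defined, so its difference between them is no finding. That sort also bears on the Ifng rise in each of them against unstimulated samples. The 7 and 6 genes counted as risen and the medians of 3.97 and 4.74 include this rise. Both the 3 genes that rose and the median of 0.24 between the reporter groups include Ifng. The other tested genes differed there by -3.32 (Egr3), -0.56 (Fasl), -0.31 (Il2ra), -0.06 (Egr2), 0.55 (Tnf), 0.64 (Csf2) and 0.77 (Il2). Csf2, a cytokine gene, had 0 to 6 reads in unstimulated libraries and averaged 13.8 ± 4.68 CPM in YFP- and 22.1 ± 9.32 CPM in YFP+ samples. With a mean log2 CPM of -4.64 in unstimulated samples, Csf2 passed the filter only through the stimulated groups. Its rise was therefore fixed in advance and is no finding. The 7 and 6 genes counted as risen and the medians of 3.97, 4.74 and 0.24 include it. Csf2 and Ifng aside, Il2ra differed from unstimulated samples by 5.32 in YFP- and 5.01 in YFP+ samples. In that order Egr2 differed by 4.59 and 4.53, Tnf by 4.40 and 4.95, and Il2 by 0.89 and 1.67. Egr3 differed by 0.73 and -2.59, and Fasl, not called, by 0.39 and -0.18. Il2ra, the IL-2 receptor alpha chain, went from 7.20 ± 1.34 to 288 ± 54.1 and 232 ± 38.0 CPM. Tnf went from 3.20 ± 0.651 to 67.0 ± 5.66 and 98.7 ± 16.4 CPM, and its call between the reporter groups (0.55, adjusted p = 0.0370) was lost without the samples labelled f2, m2 or m4 (highest adjusted p of 0.194), without the YFP+ library f2 (0.0615) and without a filter (0.165). Egr3, an early growth response factor added here after its values were seen, was at 15.9 ± 3.23 CPM without stimulation, 26.2 ± 3.13 CPM with it in YFP- samples and 2.63 ± 0.479 CPM in YFP+ samples. It dropped by 3.32 from YFP- to YFP+ samples (SE 0.18, adjusted p = 3.50e-07). Egr2, a relative on the same list, went from 11.1 ± 0.923 to 285 ± 127 and 266 ± 92.3 CPM in unstimulated, YFP- and YFP+ samples. Between the reporter groups Egr2 was not called (-0.06, adjusted p = 0.896).

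**Figure D5:**
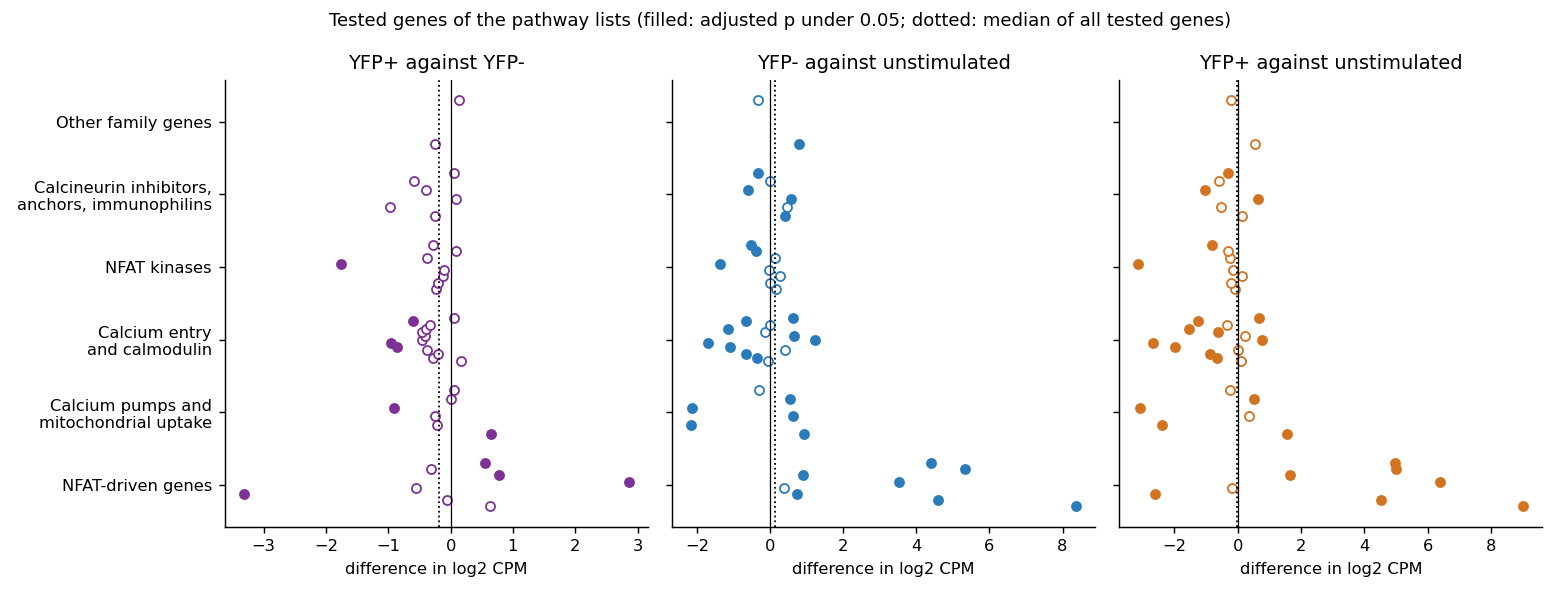
Difference in log2 CPM (horizontal axis) of every tested gene in the 6 pathway lists for the 3 comparisons; filled points have an adjusted p under 0.05, and the dotted line is the median of all tested genes. Of the NFAT-driven genes 7 lie to the right and filled in YFP- against unstimulated samples, Csf2 and Ifng among them. Csf2 passed the filter only through the stimulated groups, and Ifng marks the reporter. The NFAT kinases that are filled lie to the left in all 3 panels.

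The patterns of the 8 genes over the 12 samples fell into a few shapes, described by Pearson's r of log2 CPM over samples that share their groups and library scaling. Nfatc2 and Nfatc3 had r = 0.97 with each other, Nfatc3 and Ppp3cc 0.95, and Ppp3cb and Ppp3cc 0.95. Ppp3ca was closer to Nfatc3 (0.90) and Nfatc2 (0.88) than to Ppp3cc (0.76) or Ppp3cb (0.70). Rcan1 had r between -0.66 and -0.79 with the 5 falling genes. Among all protein-coding genes tested, the 3 most like Nfatc2 were Lig1, Ccdc34 and Ttc7 (each 0.99), and those most like Nfatc3 were Zfp36l2, Foxm1 and Dock8 (each 0.99). For Ppp3ca they were Prkd3 (0.99), Tmem176a and Sgsm2 (both 0.98), and for Ppp3cb Jdp2, Znrf2 and Usp1 (each 0.98). For Ppp3cc they were Esyt2 (0.996), the calcium pump gene Atp2a3 and Ddit4 (both 0.99). The genes most like Nfatc1 (Stk11ip, 0.89), Ppp3r1 (Slain2, 0.89) and Rcan1 (Fem1b, 0.92) followed them less closely.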

How the data were processed

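RNA was measured in 12 samples of mouse NK cells, 4 in each of 3 groups set by the treatment and reporter status in the labels. Per the labels' protocols, a SMARTer Ultra Low kit turned 10 ng of total RNA into cDNA, which was read as paired ends. The submitters' processing notes name bcl2fastq, STAR 2.7.9a, Subread, featureCounts 2.0.3 and GRCm38, with no roles given. The authors deposited 1 table of log2 CPM values, named as moderated per the file headers. Of 55774 lines 287 repeats were dropped, which left 55487 features, and 0 per-sample columns belonged to no sample. The values equal those of whole reads with a small prior proportional to the library total, within 0.001 reads for 100% of values. Reads and CPM were recovered from them. Strand use and the treatment of shared reads in counting are not given in the sources used here.

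Genes above a log2 CPM of 0 in at least 4 samples (12364) were fitted over all 12 samples with limma 3.58.1 (R 4.3.3; lmFit, contrasts, eBayes with trend), and an adjusted p under 0.05 was called. The 12 libraries held 32.1 to 54.2 M reads, and no replicate pair agreed within sampling noise (chi-square per degree of freedom of at least 21.3). Positions and exon lengths are from GENCODE M21 on GRCm38, and promoter windows from RefSeq. Alternative settings were a replicate block, only the 8 samples compared, other filters, a pseudocount of 1 CPM, quantile, median and trimmed-mean scaling, totals without 356 rRNA-like features, leaving out each label, a limit of 0.01 on the adjusted p, and voom weights. Chosen after seeing the data were totals also without Lars2, Mir6236 and Gm23935, leaving out the YFP+ libraries f2 or m3, the longest-transcript lengths, and the within-family shares, which were not tested. Scripts were tested on simulated data. The genes and lists were chosen with earlier results of these data known. Beside the 8 genes, those named are the 4 of each list with the largest called difference (1 gene of the lists is not reported here), and the 3 most correlated protein-coding genes of each of the 8. The remaining work was done in Python 3.11.15 with matplotlib 3.10.9, pandas 2.3.3 and numpy 2.4.6.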

Additional observations from a re-analysis of the deposited data

How the results depend on the processing

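Each of the 24 differences of the 8 genes was recomputed under 18 settings, and 11 kept direction and call in all of them; of the values, 393 kept both, 15 lost the call and 21 changed sign. Between YFP+ and YFP- samples, quantile normalization left 1 of the 8 genes called in place of 3. For the same comparison the whole table gave 1583 calls without a filter and 1466 at an adjusted p under 0.01, in place of 2691, and 1571 to 3193 with 1 label or YFP+ library left out. The pathway lists gave 5 and 6 in place of 10, and 5 to 13 with 1 label or library left out. The cause of these moves was not tested beyond what fewer samples, more genes or a lower threshold bring.

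The differences that changed sign had passed no test. From YFP- to YFP+ samples, quantile normalization, median centring and trimmed-mean scaling gave Ppp3cb as 0.18, 0.21 and 0.10 and Ppp3cc as 0.11, 0.13 and 0.019. Median centring gave Nfatc1 as 0.0073, Cabin1 as 0.0057 and Atp2b1 as 0.0061. Quantile normalization and median centring gave Atp2a3 as 0.016 and 0.039 and Nfat5 as 0.016 and 0.018. With 1 label or YFP+ library left out, this difference ranged from -0.20 to 0.16 for Ppp3cb, from -0.21 to 0.058 for Ppp3cc, from -0.041 to 0.15 for Ppp3r1, from -0.017 to 0.27 for Rcan1 and from -0.019 to 0.29 for Gsk3a. In YFP- against unstimulated samples, quantile normalization, median centring and totals without the 3 abundant features gave Nfatc1 as -0.11, -0.010 and -0.053 and Ppp3r1 as -0.076, -0.072 and -0.12. In YFP+ against unstimulated samples, trimmed-mean scaling gave Nfatc1 as 0.0036, and totals without the 3 features gave Ppp3r1 as -0.069 and Cabin1 as -0.044. The cause was not tested.

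With the replicate label as a block, 3, 6 and 6 of the 8 genes were called, as without it, and 3098 genes of the whole table between YFP+ and YFP- samples. The block ended the calls of Tnf between the reporter groups (adjusted p = 0.0540) and Gsk3a in YFP- samples (adjusted p = 0.0528), and it called Fkbp8 between the reporter groups (adjusted p = 0.0273) and Nfat5 in YFP+ against unstimulated samples (adjusted p = 0.0191). To look for pairing, the mean of each group was subtracted from every gene, and the remaining deviations were correlated. Deviations of same-label samples had a mean correlation of 0.24 between the reporter groups, 0.03 between YFP- and unstimulated and 0.14 between YFP+ and unstimulated samples. In these comparisons 3, 1 and 2 of 4 labels correlated best with their own. Between the reporter groups the 4 labels gave 0.05 (f2), 0.35 (m2), 0.37 (m3) and 0.17 (m4), a hint of pairing for 3 of them. Since the labels name no shared animal and not every correlation was over 0.1, the block was kept as an alternative. For Rcan1, 52 reads in the lowest library limit the precision. No sample among 42 sets of 4 values stood apart by Dixon's gap ratio at the 95% level, where chance gives about 2.1.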
